A study of Daphnia magna with 45 samples.

Results

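A higher and a lower dose of propranolol were set against each other in whole Daphnia magna after 24 h of exposure. The comparison took the 3 libraries of animals in propranolol at 4 mg/L and the 3 libraries of animals in propranolol at 1 mg/L, 6 of the 45 libraries of the series. They were chosen by their labels alone. No control library entered the difference of means, while all 45 libraries entered the fit that gave the error of each test. D. magna is a small freshwater crustacean. The animals were females of strain Xinb3, 5 days old, kept 20 to each 35 mL exposure, and their messenger RNA was sequenced, so that a library stands for a pool of whole bodies. Earlier hours and unexposed animals are used below beside them. The higher dose had 3 libraries at 1 h and 2 libraries at 6 h. The lower dose and the unexposed animals had 3 libraries at each of 1, 3 and 6 h, and the unexposed animals also 3 at 24 h and 1 at 0 h. Isoprenaline at 100 mg/L, an agonist of the receptors that propranolol blocks, was given alone or together with propranolol at 1 mg/L, each with 3 libraries at 1 and at 6 h, and these 12 libraries are used for a single group of IDs. The solution that the unexposed animals were kept in is not described in the labels. The series asked how agents acting on beta-adrenergic receptors change the heart and gene expression, and the comparison asks what the higher dose adds to the lower one after a day.

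Propranolol blocks beta-adrenergic receptors, which in vertebrates carry the signal of adrenaline and noradrenaline to the heart and raise its rate and force. Arthropods use chiefly octopamine and tyramine, related amines, in comparable roles. The heart of Daphnia can be watched through the transparent body, and its rate is a common readout of drug exposure.

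The deposited table gives features by transcript identifier (ID) and holds no gene names, and none of its 19159 IDs matched the reference table of 28335 genes (0 matches). Roles, pathways and tissue markers could therefore not be assigned, and IDs are described by their levels. Levels are in CPM, an ID's reads per 1000000 reads of its library. In whole-body RNA, fewer cells of a type and less RNA per cell cannot be told apart.

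The 6 libraries held 18.3 to 43.7 M reads, and replicate 1 of 4 mg/L and replicate 2 of 1 mg/L are called the libraries that stood apart below. Replicate 1 of 4 mg/L correlated with its own replicates 2 and 3 at r = 0.762 and 0.843 across IDs, while replicates 2 and 3 correlated at 0.945 with each other. With replicate 1 of 1 mg/L it correlated more closely than with these (r = 0.883). Replicate 2 of 1 mg/L correlated more closely with replicate 2 of 4 mg/L (r = 0.972) than with replicates 1 and 3 of its own dose (0.847 and 0.961). It was not the library least like its group by this measure, since replicates 1 and 3 of 1 mg/L correlated at 0.915. These correlations are over 19159 IDs of a library pair, share the depth of the libraries and are given as descriptions. The difference between the dose means held 9.36% of the sum of squares of the 6 libraries on the log2 scale. The first principal component (62.3% of the variance) did not part the doses. It had replicate 1 of both doses below 0, and replicates 2 and 3 of both doses above it. The median SD of an ID was 0.351 at 4 mg/L and 0.333 at 1 mg/L. It was 0.237 without replicate 1 of 4 mg/L and 0.236 without replicate 2 of 1 mg/L. An SD over 2 libraries tends to lie below one over 3, whichever library is left out, and other replicates were not left out here. How far these libraries raise the spread is thus not shown. The counts of calls and the values of the named IDs are also given without the libraries that stood apart.

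Few IDs separated the doses at 24 h. With limma on log2(CPM + 1) and a Benjamini-Hochberg adjusted p under 0.05, 3 IDs were higher and 2 lower at 4 mg/L, which is 0.0261% of the 19159 tested. At an unadjusted p under 0.05 there were 1278 IDs, of which 693 (3.62%) were higher and 585 (3.05%) lower. The median log2 difference of all IDs was 0.02, and the middle 50% lay between -0.19 and 0.21. All 3 libraries at 4 mg/L lay above all 3 libraries at 1 mg/L in 594 IDs (3.1%), and below them in 637 (3.32%). Together these were 6.43% of IDs. Relabelling 3 against 3 libraries gives such a split, in either direction, with a probability of 0.1, so these counts alone do not mark a dose difference. A difference of at least 1 on the log2 scale was measured in 214 IDs that were higher and 256 that were lower, and in 99 and 83 of these the libraries of the doses did not overlap. The median 95% interval of a difference, not adjusted for the number of IDs, reached 0.57 either side. In a typical ID smaller differences thus missed even the unadjusted threshold. A call asked for more, since the largest unadjusted limma p among the called IDs was 1.09e-05. Differences beyond 0.57 could therefore also go uncalled in a typical ID, and the few calls do not exclude them.

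The count rested on single libraries. Leaving out replicates 1, 2 and 3 of 4 mg/L in turn gave 1, 3 and 42 calls, and leaving out those of 1 mg/L gave 1, 68 and 2. Without both libraries that stood apart, 14 IDs were called, 2 higher and 12 lower, and 3 of the 5 calls were among them. The edgeR quasi-likelihood test on the recovered reads called 29 IDs, 14 higher and 15 lower (0.151% of those tested), of which limma also called 4. Without replicates 1, 2 and 3 of 4 mg/L in turn edgeR called 1, 52 and 154 IDs, without those of 1 mg/L 10, 86 and 9, and without both libraries that stood apart 13, of which 10 were among the 29. With only the 6 libraries in the limma fit there were 0 calls and 442 IDs at an unadjusted p under 0.05, so the 5 calls rest on the spread estimated over all groups.

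**Figure D1:**
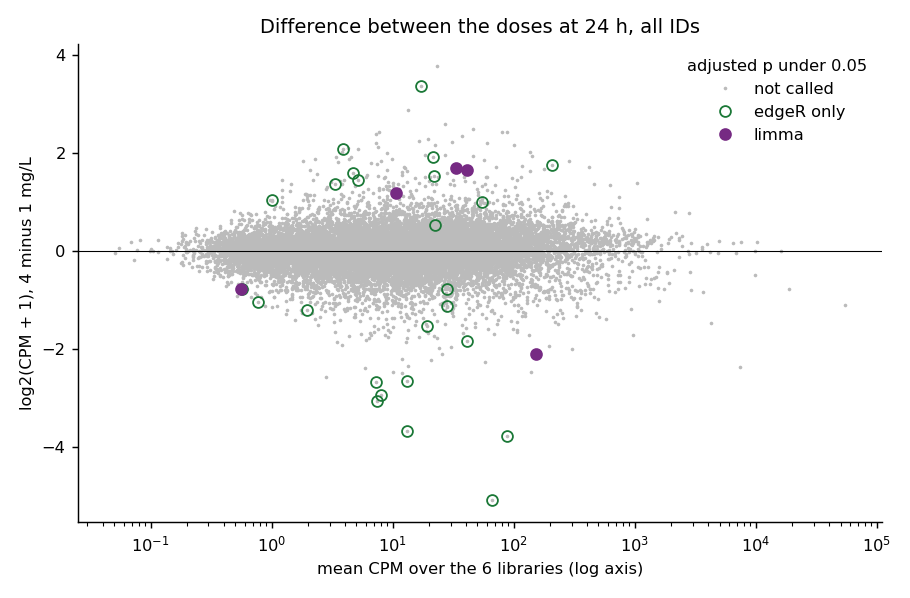
Each point is 1 of 19159 IDs. The horizontal axis gives its mean CPM over the 6 libraries on a log axis, and the vertical axis the difference in mean log2(CPM + 1), 4 minus 1 mg/L at 24 h. Filled points are the 5 IDs called by limma, and open circles those called by edgeR alone.

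The rise passing the test with the smallest p was that of Dapma7bEVm023888t1. It had 69.9, 40.0 and 44.2 CPM in the 4 mg/L libraries, against 12.5, 15.4 and 16.1 CPM in the 1 mg/L libraries. The doses did not overlap, and replicate 1 was the highest at 4 mg/L and the lowest at 1 mg/L. The mean was 51.3 ± 16.2 CPM at 4 mg/L and 14.7 ± 1.94 CPM at 1 mg/L (SD, n = 3 each), a ratio of 3.50 and a log2 difference of 1.70 (SE 0.225, limma adjusted p 0.000279, edgeR 0.00106). This call held in each of the 6 fits that left out 1 of these libraries, with limma adjusted p of 0.000405 to 0.014, and without both libraries that stood apart (0.00669).

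Dapma7bEVm015503t1 was also higher at 4 mg/L, with 84.2, 57.1 and 47.9 CPM, against 12.9, 26.9 and 19.1 CPM at 1 mg/L. The doses did not overlap, and replicate 1 was again the highest at 4 mg/L and the lowest at 1 mg/L. Means were 63.1 ± 18.9 CPM at 4 mg/L and 19.7 ± 6.99 CPM at 1 mg/L (SD, n = 3 each). The ratio was 3.21 and the log2 difference 1.65 (SE 0.294, limma adjusted p 0.0234, edgeR 0.0277). It missed the threshold without replicate 1 or 2 of 4 mg/L (limma adjusted p 0.253 and 0.0571) and without replicate 1 or 3 of 1 mg/L (0.308 and 0.0754), and passed without both libraries that stood apart (0.0421).

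The third rise, Dapma7bEVm015119t1, lay outside the naming rule and was chosen after its values were seen. It had 20.5, 13.0 and 11.8 CPM at 4 mg/L, against 4.66, 6.72 and 6.62 CPM at 1 mg/L, again without overlap. The log2 difference was 1.18 (SE 0.220, limma adjusted p 0.0369, edgeR 0.0294). The call was lost without the same 4 libraries in turn (limma adjusted p 0.253, 0.0571, 0.399 and 0.0754) and without both that stood apart (0.124). In all 3 IDs replicate 1 was the highest of the 4 mg/L libraries, and replicates 2 and 3 still lay above every 1 mg/L library.

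Dapma7bEVm005913t1 fell with the dose. It had 34.4, 57.2 and 67.6 CPM in the 4 mg/L libraries, against 389.1, 120.9 and 238.4 CPM in the 1 mg/L libraries. Replicate 2 of 1 mg/L was the lowest of its group and still lay above all 4 mg/L libraries. The mean was 53.1 ± 17.0 CPM at 4 mg/L and 249 ± 134 CPM at 1 mg/L (SD, n = 3 each), 4.70 times lower at 4 mg/L, with a log2 difference of -2.11 (SE 0.327, limma adjusted p 0.00312, edgeR 0.00326). It missed the threshold without replicate 1 of either dose (limma adjusted p 0.106 without that of 4 mg/L and 0.156 without that of 1 mg/L), and passed without both libraries that stood apart (0.00163).

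The other call that was lower, Dapma7bEVm013966t1, was a scarce transcript and was likewise named after its values were seen. It had 1, 6 and 5 reads in the 4 mg/L libraries, against 26, 14 and 16 reads in the 1 mg/L libraries. In CPM these were 0.0498, 0.137 and 0.213 at 4 mg/L, and 1.42, 0.73 and 0.762 at 1 mg/L. The mean CPM was 7.29 times lower at 4 mg/L. Of all libraries it reached 1 CPM only in replicate 1 of 1 mg/L and control replicates 1 and 2 at 24 h (1.29 and 1.92 CPM). It thus met the filter for testing only through groups where it was high. Its differences from those groups, here and below, may follow in part from that filter. The log2 difference was -0.78 with a pseudocount of 1 (SE 0.15, limma adjusted p 0.0419), -1.65 with a pseudocount of 0.25 (limma adjusted p 0.0403) and -2.80 with edgeR, which did not call it (adjusted p 0.0685). It was also lost without replicate 1 or 2 of 4 mg/L (limma adjusted p 0.253 and 0.1) and without replicate 1 or 3 of 1 mg/L (0.562 and 0.0754), and without both libraries that stood apart (0.0818).

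The second place for lower IDs under the naming rule went to Dapma7bEVm016578t1, which limma did not call with all libraries. It had 0.945, 0.229 and 0.170 CPM at 4 mg/L, which are 19, 10 and 4 reads, against 163.3, 1.98 and 225.6 CPM at 1 mg/L. Replicates 1 and 3 of 1 mg/L lay far above the 4 mg/L libraries, while replicate 2 lay just above the highest of them. The log2 difference was -5.09 (SE 0.999, limma adjusted p 0.0516, edgeR 0.00498). Without replicate 2 of 1 mg/L it was -7.10 (limma adjusted p 9.12e-06), and without both libraries that stood apart -7.33 (4.71e-05). In the other 5 fits with a library left out the limma adjusted p was 0.0541 to 0.59. The edgeR call was lost without replicate 1 of 4 mg/L (adjusted p 0.0589).

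**Figure D2:**
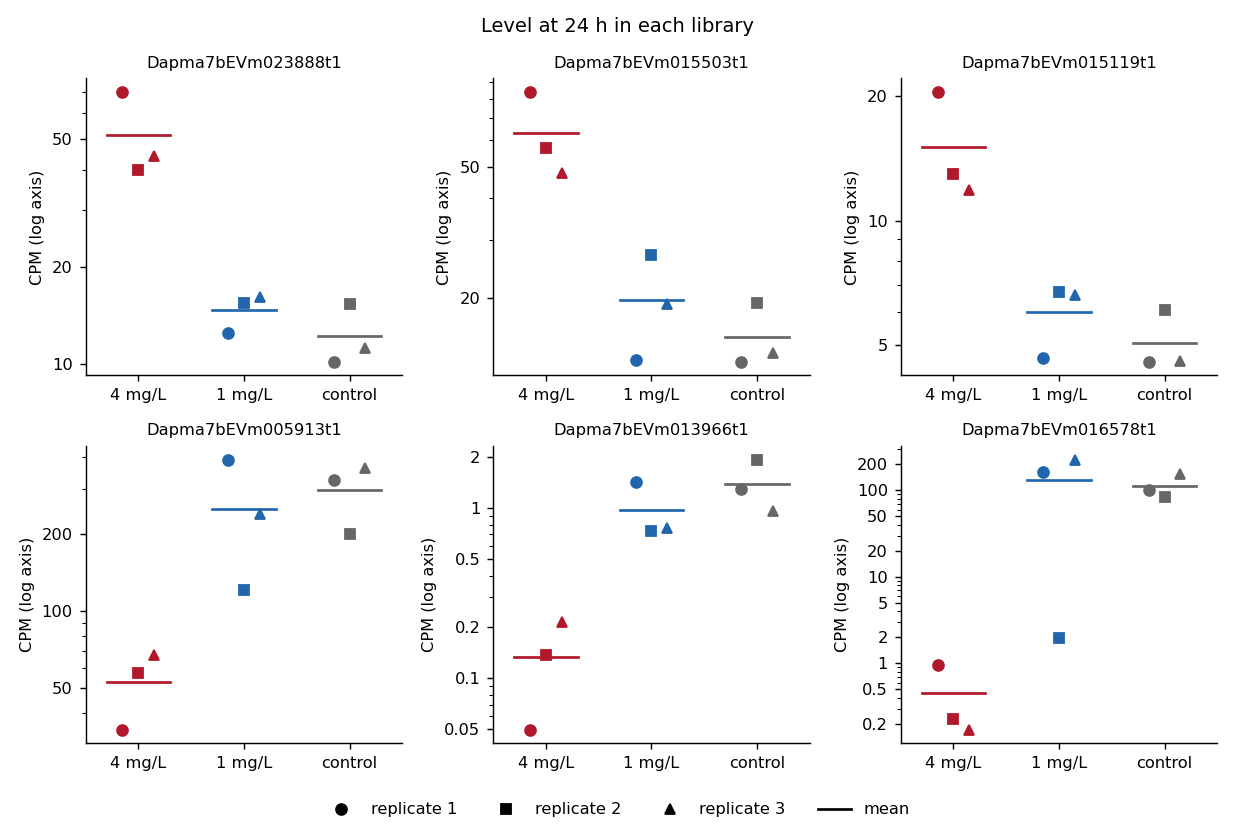
CPM at 24 h on log axes, 1 panel per ID, for each library of propranolol 4 mg/L, propranolol 1 mg/L and control, with lines at the means. In all 6 panels the 4 mg/L libraries lie outside the range of the 1 mg/L and control libraries, and in the last panel replicate 2 of 1 mg/L (1.98 CPM) lies near the 4 mg/L libraries.

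Set beside control libraries of the same hour, these IDs were nearer to control at 1 mg/L than at 4 mg/L. Both comparisons share the 3 control libraries, so the values are given side by side. The 6 IDs were also chosen because these same dosed libraries differed, so both doses could not lie near control. Over all IDs, 308 (1.61%) were called for 4 mg/L against control and 3 (0.0157%) for 1 mg/L against control. The 308 were 94 higher and 214 lower, while edgeR called 578 for 4 mg/L, 334 higher and 244 lower. Without replicate 1 of 4 mg/L the first count was 26, and 61 without both libraries that stood apart. Without replicate 2 of 1 mg/L the second count was 0, with 517 at an unadjusted p under 0.05, and edgeR called 0 IDs for 1 mg/L with every library (554 unadjusted). Dapma7bEVm023888t1 differed from control by 1.96 at 4 mg/L (SE 0.225, limma adjusted p 1.33e-05) and by 0.26 at 1 mg/L (SE 0.225, limma adjusted p 1). Dapma7bEVm005913t1 differed by -2.47 at 4 mg/L (SE 0.327, limma adjusted p 0.000102) and by -0.36 at 1 mg/L (SE 0.327, limma adjusted p 1). For Dapma7bEVm015503t1 the differences were 1.97 and 0.32, for Dapma7bEVm015119t1 1.38 and 0.20, for Dapma7bEVm013966t1 -1.06 and -0.28, and for Dapma7bEVm016578t1 -6.30 and -1.20, each for 4 mg/L and then 1 mg/L. All 6 passed at 4 mg/L (limma adjusted p up to 0.0015, and up to 0.0431 without replicate 1 of 4 mg/L) and none at 1 mg/L (limma adjusted p 1 each). Without replicate 2 of 1 mg/L the differences of 1 mg/L from control were 0.09 for Dapma7bEVm005913t1 and 0.80 for Dapma7bEVm016578t1, with the sign turned. They were then 0.22 for Dapma7bEVm023888t1, 0.07 for Dapma7bEVm015503t1, 0.13 for Dapma7bEVm015119t1 and -0.19 for Dapma7bEVm013966t1, and all 6 stayed short of the threshold (limma adjusted p 1 each).

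In unexposed animals all 6 of these IDs also differed between 24 and 1 h. The 3 that were higher at the higher dose were lower at 24 h than at 1 h in control, by -2.28 for Dapma7bEVm023888t1, -2.59 for Dapma7bEVm015503t1 and -2.35 for Dapma7bEVm015119t1 (limma adjusted p 1.26e-07, 1.82e-06 and 1.12e-07). The single control library at 0 h had 22.4, 17.4 and 6.65 CPM for these 3. This was nearer to the control means at 24 h (12.2, 15.2 and 5.06 CPM) than to those at 1 h (62.9, 95.4 and 29.8 CPM). Dapma7bEVm005913t1 was higher at 24 h in control by 1.59, Dapma7bEVm013966t1 by 0.54 and Dapma7bEVm016578t1 by 2.97 (limma adjusted p 0.00186, 0.0162 and 0.0464), and edgeR did not call Dapma7bEVm013966t1 or Dapma7bEVm016578t1 (adjusted p 0.236 and 0.139). At 1 mg/L the log2 differences of 24 against 1 h were -1.95, -2.09 and -2.05 for the 3 rises, all past the threshold (limma adjusted p up to 0.00017). At 4 mg/L they were -0.78, -0.84 and -1.11, none past it (limma adjusted p 0.38, 0.453 and 0.115). Without replicate 1 of 4 mg/L they were -1.02, -1.06 and -1.33, all past it (limma adjusted p 0.00512, 0.0436 and 0.000203). With all libraries limma called none of the 3 lower IDs between 24 and 1 h within either dose. At 4 mg/L the differences were -0.07 for Dapma7bEVm005913t1, -0.07 for Dapma7bEVm013966t1 and 0.31 for Dapma7bEVm016578t1 (limma adjusted p 0.999 each). At 1 mg/L they were 1.01, 0.47 and -0.49 in the same order (limma adjusted p 0.0838, 0.0762 and 0.885), the last against the sign in control. Without replicate 2 of 1 mg/L they were 1.45, 0.56 and 1.52, of which the first passed (limma adjusted p 0.0141, 0.0794 and 0.368).

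**Figure D3:**
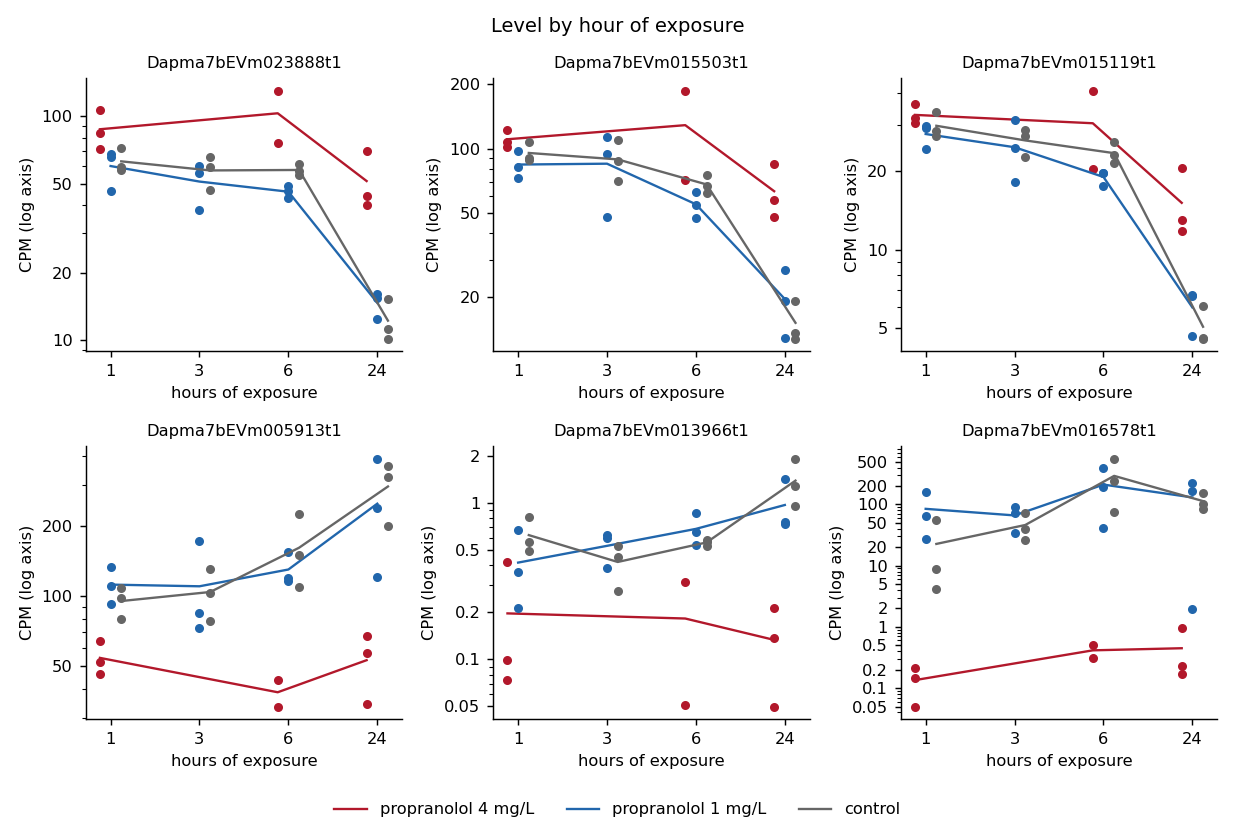
CPM on log axes against the hour of exposure for the same 6 IDs. Points are libraries, and lines join the means of propranolol 4 mg/L, propranolol 1 mg/L and control. Propranolol 4 mg/L has no point at 3 h, and the control library at 0 h is not shown. The means of 1 mg/L and control lie close together at 24 h, with 4 mg/L above them in the upper panels and below them in the lower ones.

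The same IDs were measured in other animals at earlier hours, and the differences between the doses had the same sign at 6 and at 1 h for all 6. Dapma7bEVm023888t1 had 129.8 and 76.3 CPM in the 4 mg/L libraries at 6 h, against 48.6, 46.3 and 43.1 CPM at 1 mg/L, a log2 difference of 1.10 (SE 0.252, limma adjusted p 0.0127). Dapma7bEVm005913t1 had 33.5 and 43.8 CPM at 4 mg/L at 6 h, against 119.03, 155.3 and 115.9 CPM at 1 mg/L, a difference of -1.73 (SE 0.366, limma adjusted p 0.00858). Neither ID overlapped between the doses at that hour. Without replicate 1 of 4 mg/L at 6 h neither was called by limma.

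Dapma7bEVm016578t1 had 0.514 and 0.314 CPM at 4 mg/L at 6 h, against 41.7, 397.8 and 193.6 CPM at 1 mg/L, a difference of -6.72 (SE 1.12, limma adjusted p 0.00195). At 1 h it had 0.0495, 0.209 and 0.147 CPM at 4 mg/L, against 27.6, 162.4 and 64.4 CPM at 1 mg/L. This was a difference of -5.89 (SE 0.999, limma adjusted p 0.0134). Without replicate 1 of 4 mg/L at 6 h it was not called at 6 h. The levels at 4 mg/L were under 1 CPM in all 8 libraries of the 3 hours, and among the 9 libraries at 1 mg/L of the same hours the 1.98 CPM of replicate 2 at 24 h was the lowest, below the next of 27.6 CPM. Low levels of this ID were not limited to 4 mg/L. It had 0 to 0.445 CPM in the 12 libraries with isoprenaline, of which the libraries with propranolol had 0 to 0.338 CPM. The single control library at 0 h had 0.1 CPM. The other 3 IDs missed the threshold at 6 h (limma adjusted p 0.0633 for Dapma7bEVm015503t1, which edgeR called with an adjusted p of 0.0266, 0.213 for Dapma7bEVm015119t1 and 0.0815 for Dapma7bEVm013966t1).

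Whether a dose difference itself changed with the hour was tested as the difference at 24 h minus that at 6 or 1 h. No ID passed against 6 h (0%, 1143 at an unadjusted p under 0.05 with limma, edgeR 0 calls and 1027 unadjusted). None passed against 1 h (0%, 160 unadjusted with limma, edgeR 0 calls and 295 unadjusted). For Dapma7bEVm023888t1 the difference at 24 h exceeded that at 6 h by 0.60 (95% interval -0.08 to 1.29) and that at 1 h by 1.16 (0.52 to 1.81, limma adjusted p 1). A typical ID had an SE of 0.419 against 6 h and 0.395 against 1 h (medians), so that an equal dose difference at all hours is not shown either. Within a dose, 628 IDs (3.28%) were called between 24 and 1 h at 1 mg/L and 0 (0%) at 4 mg/L, where 1204 met an unadjusted p under 0.05 and edgeR called 2 (869 unadjusted). The 0 rested on replicate 1 of 4 mg/L, without which 1116 IDs were called at 4 mg/L (239 higher, 877 lower) and 1283 at 1 mg/L. Without replicate 2 of 1 mg/L the count at 1 mg/L was 367, and without both libraries 1119 were called at 4 mg/L and 803 at 1 mg/L. The test of the dose difference at 24 against 1 h had 0 calls in all of these fits (225 to 310 unadjusted).

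Replicate 2 of 1 mg/L was placed on IDs that had been called without it. Those 68 IDs were 10 higher (0.0522% of all IDs) and 58 lower (0.303%) at 4 mg/L. They came from the other 5 libraries of the comparison, so its own values did not enter these calls. On a scale where the mean of the 4 mg/L libraries is 1 and the mean of replicates 1 and 3 of 1 mg/L is 0, its median position was 0.855 over the 58 lower IDs and 0.343 over the 10 higher ones. It lay nearer to 4 mg/L than to its own dose in 48 of the 58 lower IDs and in 3 of the 10 higher ones. The libraries that gave the calls also set both ends of the scale, which widens the gap and draws any library left out inward. Only 5 of the 68 were called with replicate 2 of 1 mg/L in the fit. A place away from its group on most of them was thus likely beforehand. The control libraries of that hour, which entered the error of the fit and not the difference of means, had median positions of 0.06, 0.17 and 0.03 over the 68 IDs and lay nearer to 4 mg/L in 0, 4 and 0 of them. Replicate 2 of 1 mg/L thus departed from control as well as from its own group on these IDs. Its recovered total, 19.2 M reads, lay between those of replicates 1 and 3, 18.3 and 21.0 M. It was used as labelled, and every mean at 1 mg/L and 24 h includes it unless it is said to be left out. Whether its label is right was not tested. Replicate 3 of 4 mg/L was likewise nearer to the other dose on IDs called without it. Over those 42 IDs, 27 higher and 15 lower, its median position was 0.342, and it lay nearer to 4 mg/L in 11. The sets called without each of the other 4 libraries held 1 to 3 IDs.

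The 12 lower IDs called without both libraries that stood apart gave a like placing, but 8 of them belong to a group of closely correlated IDs described further on and so repeat a pattern. Replicate 2 of 1 mg/L lay nearer to 4 mg/L in 12 of 12, with positions from 0.583 to 1.05, and replicate 1 of 4 mg/L lay nearer to its own dose in 12 of 12, from 0.857 to 1.37. Of the 2 higher IDs, replicate 2 of 1 mg/L lay nearer to 4 mg/L in 0, and replicate 1 of 4 mg/L lay at 1.41 and 1.48, beyond the mean of its own dose.

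These sets were then read in the libraries of 6 and 1 h. Of the 58 lower IDs, 56 were also lower at 4 mg/L at 6 h and 57 at 1 h, with median differences of -1.998 and -1.10. Of the 10 higher IDs, 9 were higher at 6 h and 10 at 1 h, with medians of 0.59 and 0.35. Over all IDs lower at 24 h, 68.9% were lower at 6 h and 58.3% at 1 h, and over all IDs higher at 24 h, 52.8% were higher at 6 h and 69.7% at 1 h. At 6 h 46 of the 58 lower IDs were called, against 3.66% of all IDs in that direction, and 2 of the 10 higher ones, against 0.13%. These calls rested on replicate 1 of 4 mg/L at 6 h. Without it 1 of the 58 and 0 of the 10 were called, where limma called 4 lower and 0 higher IDs in all, while 56 of the 58 were still lower (median -1.53) and 9 of the 10 higher (0.39). Without replicate 2 or 3 of 1 mg/L at 6 h 30 and 15 of the 58 were called.

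**Figure D4:**
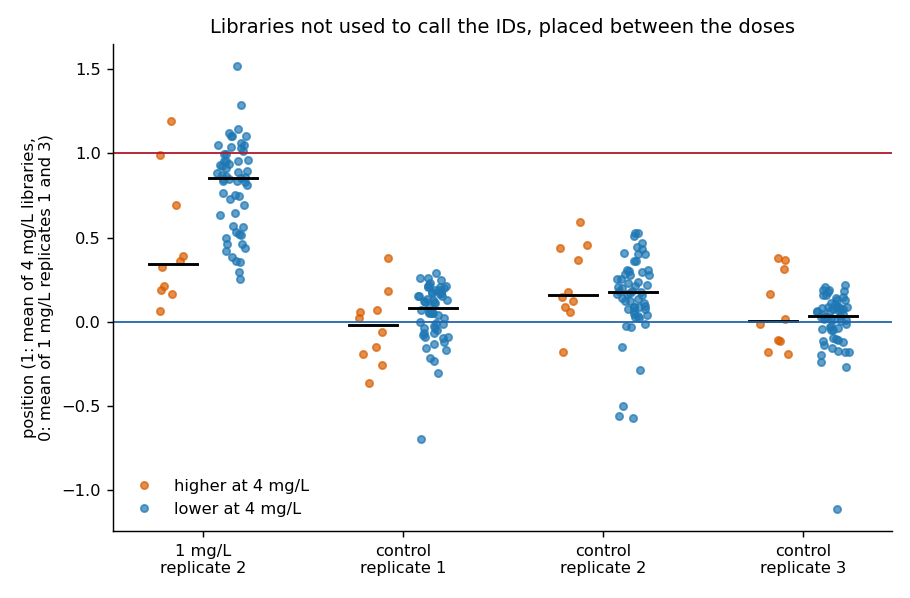
Each point is 1 of the 68 IDs called at 24 h without replicate 2 of 1 mg/L. The vertical axis gives the position of a library whose values did not enter the difference of means, where 1 is the mean of the 4 mg/L libraries and 0 the mean of replicates 1 and 3 of 1 mg/L, and black bars are medians. The lower IDs of replicate 2 of 1 mg/L centre at 0.855, and those of the 3 control libraries at 0.08, 0.18 and 0.03.

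A small set of IDs varied with Dapma7bEVm016578t1. By a likeness fixed after the values were seen, a Pearson r of at least 0.95 on log2(CPM + 1) over all 45 libraries, 11 other IDs had its pattern (r from 0.952 to 0.992). Their highest levels were 6.92, 5.35 and 8.13 CPM in the 4 mg/L libraries at 24 h, against 210.8, 6.04 and 293.8 CPM at 1 mg/L. Their medians were 0.498, 0.572 and 0.638 CPM at 4 mg/L, and 18.8, 1.41 and 29.1 CPM at 1 mg/L, with replicate 2 as the low one. In all 11, replicate 2 of 1 mg/L lay nearer to the 4 mg/L mean than to its own replicates, and below every control library of that hour. The median of the 11 was 14.3, 15.6 and 21.1 CPM in those control libraries. In the libraries with isoprenaline, alone or with propranolol, it was 0.148 to 0.647 CPM. With all libraries limma called 0 of the 11 and edgeR 7, against 0.151% of all IDs with edgeR. All 11 were among the 58 lower IDs called without replicate 2 of 1 mg/L, against 0.303% of all IDs. These shares, the place of replicate 2 of 1 mg/L in all 11 and the medians with isoprenaline are a description. The likeness used the same libraries, so they follow in large part from the choice of IDs.

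The 29 IDs called by edgeR at 24 h were followed in the same way. Their log2(CPM + 1) differences ran from 0.54 to 3.38 for the 14 higher ones and from -5.09 to -0.77 for the 15 lower ones. Of the 14 higher IDs, 12 were higher at 6 h and 13 at 1 h. All 15 lower IDs were lower at 6 h and at 1 h, and limma called all 15 at 6 h, against 3.66% of all IDs. Without replicate 1 of 4 mg/L at 6 h limma called 0 of the 15 there, and all 15 were still lower (median -1.87), while 9 of the 14 were higher. Of the 14 higher IDs limma called 2 at 6 h, against 0.13% of all IDs, and 0 without replicate 1 of 4 mg/L at 6 h. In unexposed animals 10 of the 14 higher IDs were called lower at 24 h than at 1 h, against 5.28% of all IDs, and 4 of the 15 lower ones were called higher, against 7.59%. The medians of the 14 against control at 24 h were 1.64 at 4 mg/L and 0.09 at 1 mg/L. Those of the 15 were -2.47 at 4 mg/L and -0.36 at 1 mg/L. These values are side by side with shared control libraries, and the IDs were chosen on the same dosed libraries.

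Lists of IDs called in other libraries were then read across the 6 libraries at 24 h, with counts and medians and no test. Of the 25 IDs higher at 4 mg/L at 6 h, 24 were higher at 24 h, with a median difference of 0.48, against 52.2% higher and a median of 0.02 over all IDs. At the unadjusted level 17 of the 25 (68%) were higher, against 3.62% of all IDs, and 1 was called. The library medians were 0.27, 0.26 and 0.25 at 4 mg/L, against -0.40, -0.08 and -0.28 at 1 mg/L, relative to the mean of the 6, without overlap. Without replicate 1 of 4 mg/L the median difference was 0.42, and without replicate 2 of 1 mg/L it was 0.55. The balance of the directions at 6 h depended on the scaling, with 25 higher and 701 lower IDs as deposited, 90 and 345 with median log-ratio scaling, and 101 and 250 with edgeR. The list itself held 5 IDs without replicate 3 of 1 mg/L at 6 h, with a median of 0.32, and 47 without replicate 2 of 4 mg/L at 6 h (0.64). It held none without replicate 1 of 4 mg/L at 6 h (0 IDs).

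Of the 701 IDs lower at 4 mg/L at 6 h, 600 (85.6%) were lower at 24 h, with a median difference of -0.32, against 47.8% lower over all IDs. At the unadjusted level 226 (32.2%) were lower and 0 higher, against 3.05% and 3.62% of all IDs. The library medians were -0.31, -0.26 and 0.03 at 4 mg/L, against 0.33, -0.15 and 0.33 at 1 mg/L, so that replicate 3 of 4 mg/L and replicate 2 of 1 mg/L crossed. Without replicate 2 of 1 mg/L the median was -0.43, and without replicate 1 of 4 mg/L it was -0.25. The list held 4 IDs without replicate 1 of 4 mg/L at 6 h (median -0.56), 1317 without replicate 2 of 4 mg/L (-0.32) and 123 without replicate 3 of 1 mg/L (-0.47).

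Lists from unexposed animals were read in the same way. Of the 1012 IDs lower at 24 h than at 1 h in control, 890 (87.9%) were higher at 4 mg/L than at 1 mg/L at 24 h, with a median of 0.38, against 52.2% and 0.02 over all IDs. At the unadjusted level 260 (25.7%) were higher, against 3.62% of all IDs. The library medians were 1.18, -0.18 and -0.22 at 4 mg/L, against -0.47, -0.12 and 0.00 at 1 mg/L. Replicate 1 of 4 mg/L was thus alone above the rest, and without it the list held 632 higher and 583 lower IDs with a median difference of 0.02, and the median was 0.03 without both libraries that stood apart. Without replicates 2 and 3 of 4 mg/L in turn it was 0.63 and 0.70, and without replicate 1 of 1 mg/L 0.24. With edgeR it was 0.62 (1117 higher and 53 lower IDs), and 0.57 when each fit held the groups it compared alone. On a scale from the control mean at 1 h (0) to that at 24 h (1), the median of these IDs stood at -0.13, 0.81 and 0.87 in the 4 mg/L libraries and at 1.03, 0.75 and 0.69 in the 1 mg/L libraries. The 3 called rises belong to this list and were higher in all 3 libraries at 4 mg/L. They were called on these same libraries, and the naming rule asked for no overlap, so this follows in part from their choice.

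Of the 1454 IDs higher at 24 h than at 1 h in control, 1263 (86.9%) were lower at 4 mg/L at 24 h, with a median of -0.27, against 47.8% over all IDs. At the unadjusted level 190 (13.1%) were lower, against 3.05% of all IDs. The library medians were -0.31, -0.14 and 0.07 at 4 mg/L, against 0.35, -0.02 and 0.08 at 1 mg/L, so that the doses overlapped. On the scale of control hours they stood at 0.25, 0.48 and 0.68 at 4 mg/L and at 0.99, 0.60 and 0.70 at 1 mg/L. Without replicate 1 of 4 mg/L the median difference was -0.15, without replicate 1 of 1 mg/L it was -0.16, and without replicate 2 of 1 mg/L it was -0.36. The control lists also depended on their own libraries. Without replicate 1 at 1 h they held 459 lower and 351 higher IDs, without replicate 2 at 1 h 668 lower and 932 higher IDs, without replicate 3 at 1 h 646 lower IDs, and without replicates 1 and 3 at 24 h 592 and 596 lower and 591 and 692 higher IDs.

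**Figure D5:**
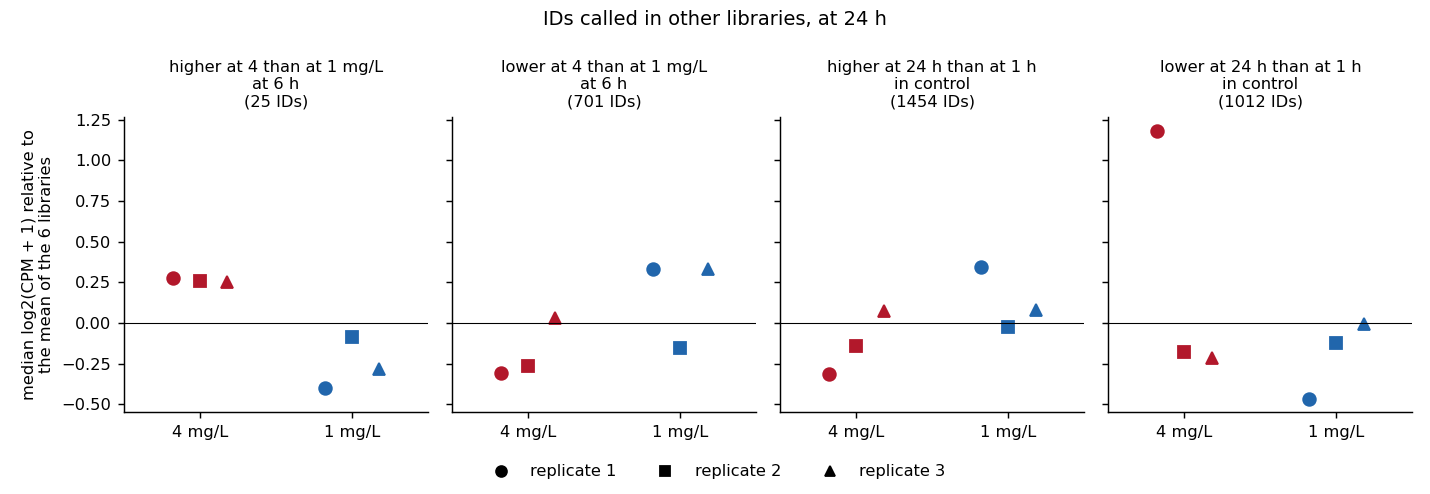
Median log2(CPM + 1) of 4 lists of IDs in each library at 24 h, relative to the mean of the 6 libraries, for propranolol 4 mg/L and 1 mg/L. Symbols mark the replicates. The first list separates the doses in all 6 libraries, and in the last list replicate 1 of 4 mg/L (1.18) stands alone.

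By level of expression, limma called 1 of the 1733 IDs under 1 CPM and 0 of 4097 IDs from 1 to 5 CPM. It called 1 of 5858 IDs from 5 to 20 CPM, 2 of 5866 from 20 to 100 CPM and 1 of 1605 at 100 CPM or more. These calls are too few to show a trend with the level. At the unadjusted level the directions differed with the level. In IDs under 5 CPM, 50 and 175 were lower and 23 and 100 higher, below and above 1 CPM. From 5 to 20 CPM, 196 were lower and 193 higher. From 20 CPM on, 119 and 45 were lower and 273 and 104 higher, below and above 100 CPM. The part of library composition in this was not tested. The most abundant ID of a library took 2.58%, 4.61% and 4.16% of the reads at 4 mg/L, and 16.2%, 4.00% and 6.28% at 1 mg/L.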

How the data were processed

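Per the submitters' processing notes, the tools were edgeR, HTSeq, Bowtie2 2.1.0 and Trim Galore 0.3.2, while a genome build or annotation is not given in the sources here. The deposited values are CPM, and each column sums to 1000000. Dividing each library by its lowest value above 0 gave whole reads (tolerance 0.01 read) for 100% of 862155 values. Reads of amplified libraries are not independent molecules, and a floor of 3 reads covers counting error only.

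Tests used limma 3.58.1 in R 4.3.3, with trended and robust variance, on log2(CPM + 1), which understates changes of low IDs, with the 16 group means of 45 libraries in a shared fit (29 residual degrees of freedom). Benjamini-Hochberg adjustment ran over all 19159 IDs, each with at least 1 CPM in 3 libraries. Alternatives were edgeR 4.0.16 on the recovered reads, 1 surrogate variable (sva 3.50.0), other pseudocounts, filters and scaling, and libraries left out.

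The naming rule took, per direction, the 2 IDs with the largest called difference, a mean of at least 5 CPM and no overlap between the doses, with free places filled by the smallest p. Members, lists and rules were chosen with earlier results of these data known. Nothing in the labels ties replicates to separate cultures, so the p-values reflect only library-to-library spread, possibly technical. Pairs of libraries within a dose differed far beyond counting noise (chi-square 122.6 or more per degree of freedom).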

Additional observations from a re-analysis of the deposited data

How the results depend on the processing

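The count of 5 calls between the doses became 9 with a pseudocount of 0.25 (5 higher, 4 lower), 9 with median log-ratio scaling, 29 with edgeR, 38 with 1 surrogate variable (17 higher, 21 lower) and 0 when the fit held the compared groups alone (442 at an unadjusted p under 0.05). It was 14 without both libraries that stood apart, and 1 to 68 with a library left out. With edgeR it was 13 without both libraries and 1 to 154 with a library left out. The labels do not tie replicate numbers to shared cultures, so same-numbered libraries were not treated as pairs. Their deviations correlated at 0.46, 0.66 and -0.17, and those of differently numbered libraries at -0.67 to 0.26. Whether replicate numbers stand for a shared source was not tested. With the replicate number as a block there were 4 calls, 3 of them among the 5. The median of the IDs higher at 6 h was 0.30 with the surrogate variable, 0.27 with median scaling, 0.23 with edgeR and 0.315 to 0.636 with a library left out. That of the IDs lower at 6 h was -0.63 with edgeR and -0.56 to -0.25 with a library left out. With only the compared groups no ID was called at 6 h, and these medians could not be computed. The dose difference at 24 h minus that at 6 h gave 0 to 4 calls with a library left out, 4 without replicate 2 of 4 mg/L at 6 h and 1 without replicate 3 of 1 mg/L at 24 h. Leave-outs of 1 h, 6 h and control libraries, those for counts against control and against 1 h, and those with edgeR were added after seeing the data. Over the 6 named IDs, 57 of 89 repeated tests kept their side of the threshold, 24 lost it and 8 passed it newly, with 0 reversals. Median scaling shifted the median of all IDs from 0.02 to 0.01.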

Other observations

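Under a rule set after seeing the data, 1 ID had no read in any 4 mg/L library at 24 h and at least 10 reads in each 1 mg/L library, and 0 IDs had the opposite pattern. Dapma7bEVm019719t1 had 0, 0 and 0 reads at 4 mg/L, against 161, 115 and 44 reads at 1 mg/L. Against a floor of 3 reads over the 4 mg/L libraries together (0.0344 CPM), the pooled 5.48 CPM at 1 mg/L make it at least 159-fold lower, by counting error only. Neither limma (adjusted p 0.102) nor edgeR (0.202) called it, and the control libraries had 68, 0 and 83 reads.

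The IDs that were the most abundant of a library varied widely between libraries of the same dose. Dapma7bEVm015017t1 had 124.4, 46066 and 6298 CPM at 4 mg/L, against 233.1, 40026 and 19535 CPM at 1 mg/L, a log2 difference of -0.78 (SE 2.80, limma adjusted p 1). Dapma7bEVm011496t1 had 25782, 17079 and 41627 CPM at 4 mg/L, against 161950, 17989 and 62838 CPM at 1 mg/L, a difference of -1.11 (SE 0.666, limma adjusted p 0.874).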
